A study of Homo sapiens with 2 samples.

Results

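In 2 single-cell RNA libraries of the human bladder carcinoma line UMUC3, cells high in genes of G2 and mitosis were first set aside. The cells described here are those of the rest that ranked highest for S phase, the phase of DNA replication. They number 900 of the 7057 barcodes that had at least 15000 UMIs (unique molecular identifiers, 1 per captured RNA molecule) and at most 20% of UMIs from mitochondrial genes. Of these members, 559 of 4385 came from the control library and 341 of 2672 from the library with a knockdown of GANAB, the catalytic subunit of glucosidase II of the endoplasmic reticulum (ER). Within each library the 15% of cells with the largest UMI fraction of TOP2A, MKI67, CENPF, UBE2C and CCNB2, genes of G2 and mitosis, were set aside first (658 and 401 cells). Members were the 15% of the remaining cells with the largest UMI fraction of 7 replication genes, PCNA, MCM4, MCM5, MCM7, GINS2, CDC45 and RRM2. The 3168 control and 1930 knockdown cells left over are called other cells below. Since the ranking chose the members, their levels of these 7 genes, and of genes that travel with them in the same cells, describe the choice and carry no test.

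Both groups were UMUC3 cells implanted in the bladders of C57 nude mice, which lack mature T cells but keep other host cells, and were taken after 14 days. For 3' counting, 10000 cells were added per channel. The kind of knockdown construct, the control construct and whether a line was 1 clone are not given in the labels. Each group was 1 library, so the knockdown cannot be told apart from any other difference between the libraries. No p-value or replicate error could be had, and all intervals are 95% intervals that cover counting error only.

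During S phase a cell copies its genome once. In G1, the origin recognition complex, CDC6 and CDT1 load the MCM helicase ring onto origins, a step called licensing; CDC45 and the GINS complex then turn the ring into a moving helicase, PCNA clamps the polymerases to DNA, ribonucleotide reductase supplies deoxynucleotides, and new histones package both copies. Most of these genes are transcribed by E2F factors when RB is phosphorylated at the G1/S border, while messages of replication-dependent histones end in a stem-loop in place of a poly(A) tail.

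Because many genes that mark these cells are known E2F targets, the 250 bases before each RefSeq gene start (GRCh38.p14) were searched for 4 E2F-type motifs, TTTCCCGC, TTTCGCGC, TTTGCCGC and TTTGGCGC, on both strands and with overlaps allowed. A match was present in 25 of the 133 promoters found for 222 genes of 12 S phase lists (18.8%), beside 761 of all 27305 promoters (2.79%) and 332 of the 6254 promoters (5.31%) of genes at 10 CPM (UMIs of a gene per 1000000 UMIs) or more in members of either library. The lists differed: 7 of 13 promoters of E2F and cyclin E genes held a match, 4 of 14 of licensing, 4 of 11 of polymerase and 3 of 9 of cohesion genes. Matches were fewer in clamp loader, RPA and Okazaki fragment genes (2 of 11), chromatin genes (2 of 16) and deoxynucleotide supply (1 of 11). Purine and pyrimidine synthesis had 1 of 11, repair and checkpoint genes 1 of 26 and firing and fork genes 0 of 11. Of promoters of G2 and mitosis genes 2 of 37 held a match. The match did not part the S phase genes by level: 17 of 90 promoters of genes at least 1.5-fold higher in members than in other cells of both libraries held it (18.9%), and 8 of 43 of the others did (18.6%). The stretches below, from genes described in the results, have the matches in capitals and up to 30 bases on each side, and are limited to bases that no GENCODE exon covers. They are shown because they let the replication genes be compared by eye. The matches before MCM6 come as an overlapping pair on opposite strands, and this pair is repeated. HELLS also has matches on both strands, which do not overlap, and MCM3, PCNA, E2F1 and POLA1 have 1 match in the stretch.

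MCM6 (chr2:135876492-135876625, minus strand): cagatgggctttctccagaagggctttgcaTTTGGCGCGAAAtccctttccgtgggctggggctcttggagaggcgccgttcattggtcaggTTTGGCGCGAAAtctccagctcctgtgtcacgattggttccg
MCM3 (chr6:52284882-52284946, minus strand): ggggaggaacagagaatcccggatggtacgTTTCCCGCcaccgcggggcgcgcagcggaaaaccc
PCNA (chr20:5126644-5126711, minus strand): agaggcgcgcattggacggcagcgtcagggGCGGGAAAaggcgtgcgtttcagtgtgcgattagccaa
E2F1 (chr20:33686405-33686448, minus strand): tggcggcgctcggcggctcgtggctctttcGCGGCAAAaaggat
POLA1 (chrX:24693751-24693818, plus strand): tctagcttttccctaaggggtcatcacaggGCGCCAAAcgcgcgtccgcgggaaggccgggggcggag
HELLS (chr10:94545682-94545787, plus strand): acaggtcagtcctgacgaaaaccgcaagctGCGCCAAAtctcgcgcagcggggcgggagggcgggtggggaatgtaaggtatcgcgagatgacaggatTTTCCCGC

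Members had a median of 58639 UMIs in control and 62935 in knockdown cells, beside 39685 and 36471 in other cells, and summed to 32942534 and 22281995 UMIs. With every cell thinned to 15000 UMIs the median member had 3671 and 3488 genes, beside 3503.5 and 3423.5 in other cells. No doublet caller was run, and the part of doublets in the higher UMI counts of members was not tested. Ranking thinned cells kept 453 of 559 control and 279 of 341 knockdown members, and ranking by 7 S phase genes outside the rule (MCM2, MCM3, MCM6, TYMS, FEN1, CLSPN and UHRF1) kept 439 and 287. No member barcode was found in the opposite library. VIM (3354 and 5641 CPM in control and knockdown members), KRT18 (226 and 304), KRT8 (137 and 179) and CD44 (239 and 162), expressed by UMUC3, were present, with KRT7 low in both (6.77 and 18.9).

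GANAB (ENSG00000089597; GRCh38 chromosome 11, 62624826 to 62646726) checks the labels. It stood at 131 CPM in control members against 44.2 in knockdown members, a log2 ratio of -1.57 (interval -1.67 to -1.47). Other cells had 120 and 39.2, a ratio of -1.62 (-1.67 to -1.56). The ratios differed by 0.05 (-0.07 to 0.16), so a difference between members and other cells was not detectable at this depth. PRKCSH (ENSG00000130175), the beta subunit of glucosidase II, had 78.4 and 46.5 CPM in members.

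The 7 ranking genes differed in level between the libraries, which bears on each comparison of knockdown with control members. The lowest-ranked control member had the 7 genes at a summed 1158 CPM and the next cell outside at 1157, while in the knockdown library these values were 387 and 383. The 20 members nearest the limit had medians of 1167 and 396, and the 20 nearest cells outside had 1144 and 370, so no gap parted members from the rest. Of 2271 ranked knockdown cells 41 reached the control limit (1.81%, Clopper-Pearson 1.30 to 2.44), against 559 of 3727 control cells (15%, 13.9 to 16.2). With thinned cells the shares were 2.47% and 16%. Conversely, 1563 control cells (41.9%, 40.3 to 43.5) lay above the knockdown limit, beside the 341 knockdown members. The fixed share thus took control cells from the top of the ranking, and knockdown cells from a range of scores that in the control library reaches into the ninth bin of 5%. The limit for setting cells aside differed too. The lowest set-aside cell had the genes of that step at a summed 1842 CPM in control and 1211 in knockdown cells. This bears on levels of G2 and mitosis genes in members, and the common limits used below keep each library's own set-aside step.

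**Figure D1:**
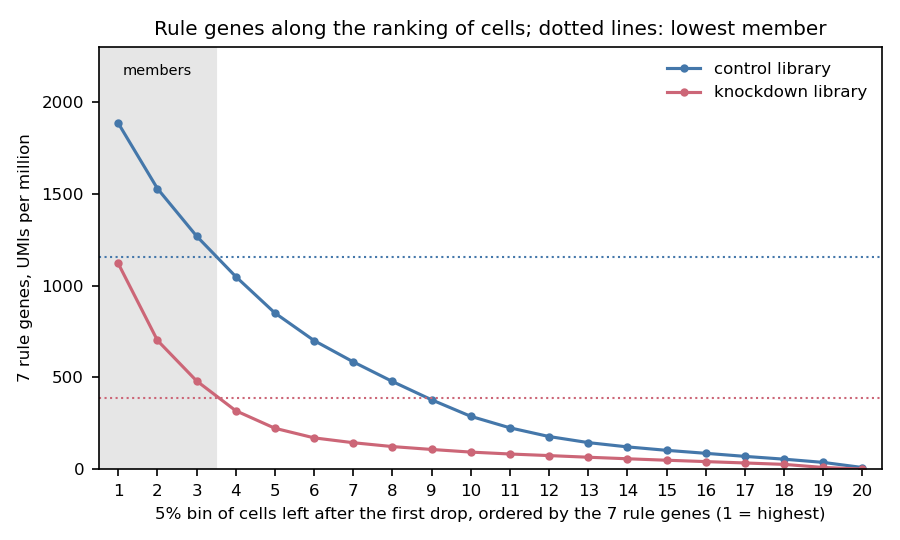
Summed CPM of the 7 ranking genes (vertical axis) in 20 successive 5% bins of ranked cells (horizontal axis, 1 = highest), for the control library (blue) and the knockdown library (red). The shaded bins are the members, dotted lines mark the lowest-ranked member of each library (1158 and 387), and the control curve lies at 378 in bin 9.

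In what follows, where 4 values stand together the first pair is CPM in control members and other control cells, and the second pair the same in the knockdown library. Among the ranking genes PCNA (ENSG00000132646; GRCh38 chromosome 20, 5114953 to 5126626), the sliding clamp, stood at 652 and 143, and at 298 and 53.4. CDC45, the helicase activator, stood at 55.8 and 7.24, and at 18.4 and 0.748, and RRM2, the regulated subunit of ribonucleotide reductase, at 139 and 19.3, and at 65.7 and 3.51. The helicase subunits MCM4 (188 and 52.4; 121 and 14), MCM5 (132 and 40.4; 81.9 and 9.64) and MCM7 (310 and 89.6; 142 and 18.4) and the GINS subunit GINS2 (73.2 and 16; 46.4 and 2.64) had the same order, which the ranking fixed. Barcodes with at most 100 UMIs, which hold free RNA, carried PCNA at 271 CPM (control) and 138 (knockdown), and MCM5 at 54.6 and 28.9. The levels of other cells lay below the free RNA for both genes.

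Genes outside the ranking show how broadly replication genes went with it. A gene counted as measured at 10 CPM or more in either group compared, and as higher or lower from a ratio of 1.5 upward. Of 7302 genes measured in both libraries, 488 (6.68%) were higher in members than in other cells of both, and 237 (3.25%) were lower. In the control library alone 8.57% of measured genes were higher and 4.23% lower, and in the knockdown library 16.4% and 13%. Of the 222 genes of the S phase lists, none a ranking gene, 183 were measured in control and 166 in knockdown cells, of which 49 and 62 reached 10 CPM in members only, so that the filter fixed their direction. In both libraries 114 of 164 were higher and 5 lower. The list medians were 1.21 and 1.28 on the log2 scale, beside 0.07 and 0.02 over all measured genes. As members were ranked on 7 genes of the same program, these counts describe what the ranking brings with it.

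Licensing genes were higher in both libraries in 9 of 13 measured in both. CDC6, which helps load the MCM ring, had 64.4 CPM in control members and 12 in other control cells, and 40.3 and 1.73 in the knockdown library. Members had the higher level in each, by a log2 ratio of 2.43 (interval 2.33 to 2.52) and 4.53 (4.28 to 4.81). GMNN, the inhibitor of CDT1, stood at 131 and 42.5, and at 91.6 and 17.2. The ring subunits MCM3 (139 and 47.8; 95.7 and 20.9) and MCM6 (100 and 35.2; 65.3 and 15.7), whose upstream matches are printed above, had the same order. Among the origin recognition subunits ORC6 was higher in members (86.3 and 22.3; 46.5 and 4.64), while ORC2 (17.2 and 15.9; 17.4 and 14.7) and ORC4 (19.6 and 21.3; 18.1 and 17.8) were within 1.5-fold.

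Firing and fork genes were higher in both libraries in 12 of 12. The filter fixed the direction of 6 genes of this list in control and 9 in knockdown cells, which reached 10 CPM in members only. MCM10, needed to start the helicase, stood at 53 and 9.57, and at 36.4 and 1.01, which in knockdown cells was the largest ratio of this list (log2 5.16, interval 4.84 to 5.52). CLSPN, a fork mediator of the checkpoint, stood at 139 and 30.3, and at 79.5 and 5.31, and TIPIN, which protects forks, differed less (84.2 and 35.2; 71.5 and 18.6). Of the polymerase list 9 of 12 were higher and 1 was lower in both. The primase subunit PRIM1 stood at 80.1 and 23.7, and at 47.2 and 7.33, and POLA1, the catalytic subunit of polymerase alpha, at 25.4 and 9.71, and at 14.5 and 6.19. POLD4, the small subunit of polymerase delta, was the lower one, at 11.3 and 19.7, and at 18.7 and 28.5.

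Clamp loader, RPA and Okazaki fragment genes were higher in both libraries in 13 of 15. FEN1, the flap nuclease of lagging strand maturation, stood at 114 and 25.6, and at 64.7 and 8.5. RFC1, the large clamp loader subunit, was past 1.5-fold in control and within it in knockdown cells (77.4 and 48.9; 70.5 and 52.7). Deoxynucleotide supply had 11 of 12 higher in both: TYMS, which makes thymidylate, stood at 287 and 68.4, and at 171 and 19.8, and TK1, the thymidine salvage kinase, at 178 and 36.3, and at 78.4 and 5.73. The exception was NME1, a nucleoside diphosphate kinase (533 and 370; 505 and 212), within 1.5-fold in control cells. The upstream purine and pyrimidine pathway moved less, with 6 of 13 higher in both and medians of 0.56 and 0.98; its CTPS1, a CTP synthase, stood at 57.5 and 30, and at 31.7 and 11.8.

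Control genes of the G1/S border held some of the largest ratios, with 12 of 13 higher in both libraries. Here 9 genes in control and 10 in knockdown cells reached 10 CPM in members only, which fixed their direction. CCNE2, a cyclin that drives entry into S phase, stood at 47.5 and 5.72, and at 23.7 and 0.922, log2 ratios of 3.05 (interval 2.93 to 3.18) and 4.67 (4.33 to 5.05). E2F1 stood at 58.6 and 12.6, and at 33.3 and 1.99, and MYBL2, a transcription factor of the late G1 and S phase cell, at 72.1 and 12, and at 49.2 and 2.4. E2F3 was within 1.5-fold in both (34.1 and 26.8; 24.5 and 25). Taking for each gene the smaller of its ratios in the libraries, the 15 highest genes at 20 CPM or more in the higher group of both were CCNE2, CDCA5, CDK1, ASF1B, MYBL2, HIST1H1D, MCM10, FAM111B, CDC6, TCF19, TK1, RAD51AP1, E2F1, ZWINT and CLSPN. Of these FAM111B, a protease (77 and 14.1, and 40.9 and 1.99), TCF19 (36.4 and 7.3, and 21.5 and 2.36) and ZWINT, a kinetochore protein (90.7 and 19.7, and 51 and 6.68), were in none of the lists.

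**Figure D2:**
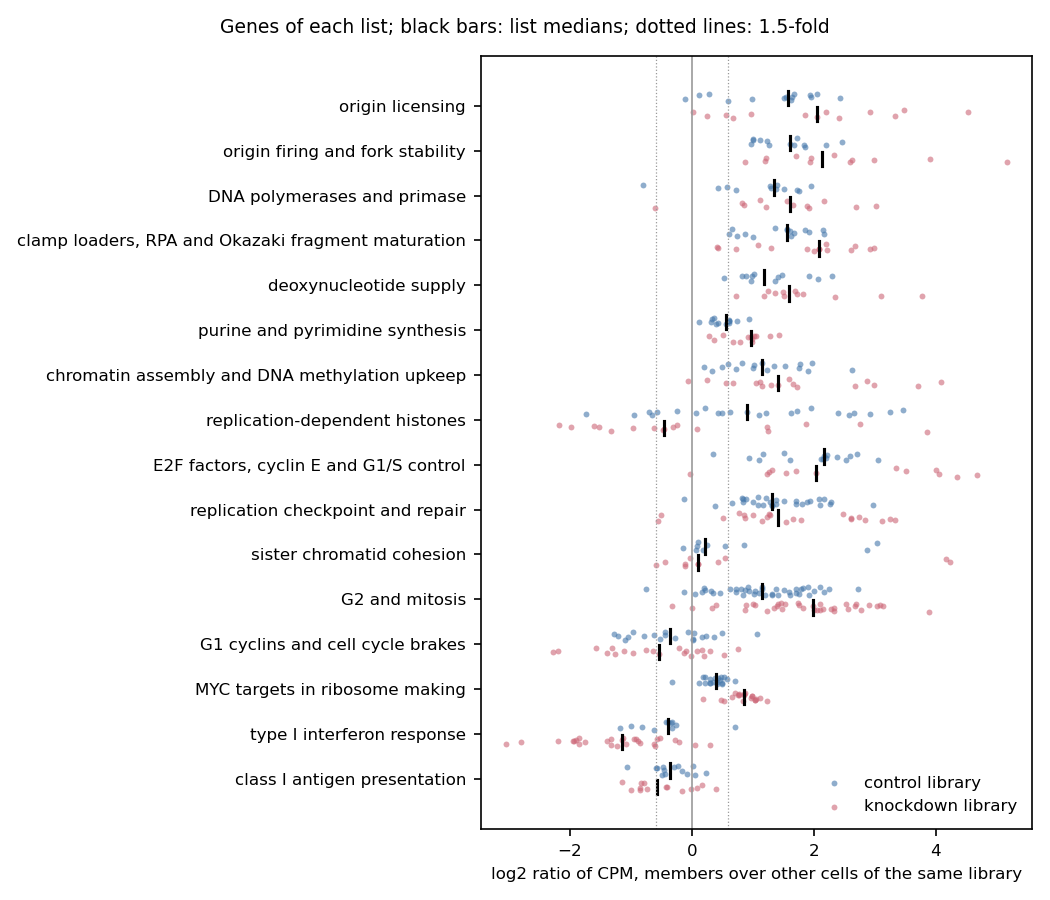
Each point is 1 measured gene of a list (rows); the horizontal axis is the log2 ratio of CPM in members over other cells of the same library, blue for control and red for knockdown. Black bars are list medians and dotted lines mark 1.5-fold; most S phase lists have their median to the right of the upper line, cohesion genes centre near 0 (0.22 and 0.10) and histone genes lie on both sides.

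Repair and checkpoint genes had 19 of 22 higher in both libraries. Again 12 genes of the list in control and 10 in knockdown cells reached 10 CPM in members only. BRCA1, which acts in recombination repair at broken forks, stood at 63.5 and 14.1, and at 41.3 and 4.11. UNG, which removes uracil from new DNA, stood at 102 and 38.9, and at 95.6 and 30.2, and the checkpoint kinase ATM was within 1.5-fold (48.6 and 53.3; 39.7 and 58.6). Of the chromatin list 14 of 17 were higher in both. ASF1B, a histone chaperone, stood at 57.1 and 9.29, and at 30.3 and 1.78, while its paralog ASF1A was within 1.5-fold (26.3 and 23; 19.7 and 20.6). UHRF1, which guides DNMT1 to copy DNA methylation, stood at 60.4 and 15.5, and at 45.9 and 3.51, and the remodeller HELLS at 133 and 46.1, and at 85.1 and 25.7. Of the cohesion list 2 of 10 passed in both: CDCA5, also called sororin (48.4 and 6.62; 22.8 and 1.21), and ESCO2, the acetyltransferase that locks cohesin on new sister strands (40.7 and 4.95; 19 and 1.06). The cohesin ring subunit RAD21 (176 and 167; 151 and 141) and the unloader WAPL (55.6 and 51.8; 49.1 and 53.2) stayed within 1.5-fold.

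Histone genes went both ways. Of 56 replication-dependent histone genes listed, 23 were measured in control cells, with 13 higher and 4 lower in members, and 17 in knockdown cells, with 5 higher and 7 lower; the medians were 0.91 and -0.46. HIST1H4C, an H4 gene, stood at 455 and 59.9, and at 239 and 65.3. In single control members it had a lower quartile of 69.8 CPM, a median of 190 and an upper quartile of 631, against 37.8, 107 and 189 in knockdown members, so that members differed widely among themselves. The linker histones HIST1H1D (92.9 and 15.6; 29.4 and 4.37) and HIST1H1B (35.8 and 3.77; 12 and 0.822) were higher in members, whereas HIST1H2BD (10.3 and 34.3; 14.3 and 64.6) was lower in both libraries and HIST1H2AC (53 and 79.2; 41.1 and 161) was lower past 1.5-fold in knockdown cells. These genes are near-identical copies of one another and 3' libraries are primed on poly(A), so single-gene values are uncertain. Of replacement and other histones 2 of 9 were higher in both, H2AFZ (881 and 473; 922 and 299) and H2AFX (93.4 and 41.7; 59.5 and 28.3), while H3F3B was within 1.5-fold (939 and 821; 823 and 740).

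Within the members, HIST1H4C went with genes of the next phase. Over 559 control members its Spearman correlation with the summed G2 and mitosis list was 0.52, and over 341 knockdown members 0.25. The licensing list correlated with the G2 and mitosis list at -0.06 and 0.01. The ranking score correlated with the licensing list at 0.25 in control and 0.62 in knockdown members, and with the UMIs of a cell at -0.10 and 0.03. The cells of each value share 1 library and the UMI total as denominator, and the values are descriptions.

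Along the ranking S phase groups declined without a step at the limit of membership, which lies after bin 3. The licensing list summed to 958 CPM in the first control bin, 819 in the third, 732 in the fourth and 143 in the last, and in knockdown cells to 777, 433, 330 and 134. CCNE2 declined faster, with 53.9, 36.6, 26.5 and 0.483 in these control bins and 40.4, 8.59, 3.94 and 0 in these knockdown bins. HIST1H4C was concentrated at the top, with 582, 301, 185 and 31.1, and 390, 110, 113 and 33. GANAB had little slope, from 131 in the first to 106 in the last control bin and from 46.9 to 34.2 in knockdown cells. The G2 and mitosis list was still at 4060 CPM in the ninth control bin, beside 4395 in the first, whereas in knockdown cells it stood at 3330 in the first and 1235 in the ninth. Other cells of the control library therefore carried more cycle RNA than those of the knockdown library, and ratios of members over other cells are not on an equal footing in the libraries.

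**Figure D3:**
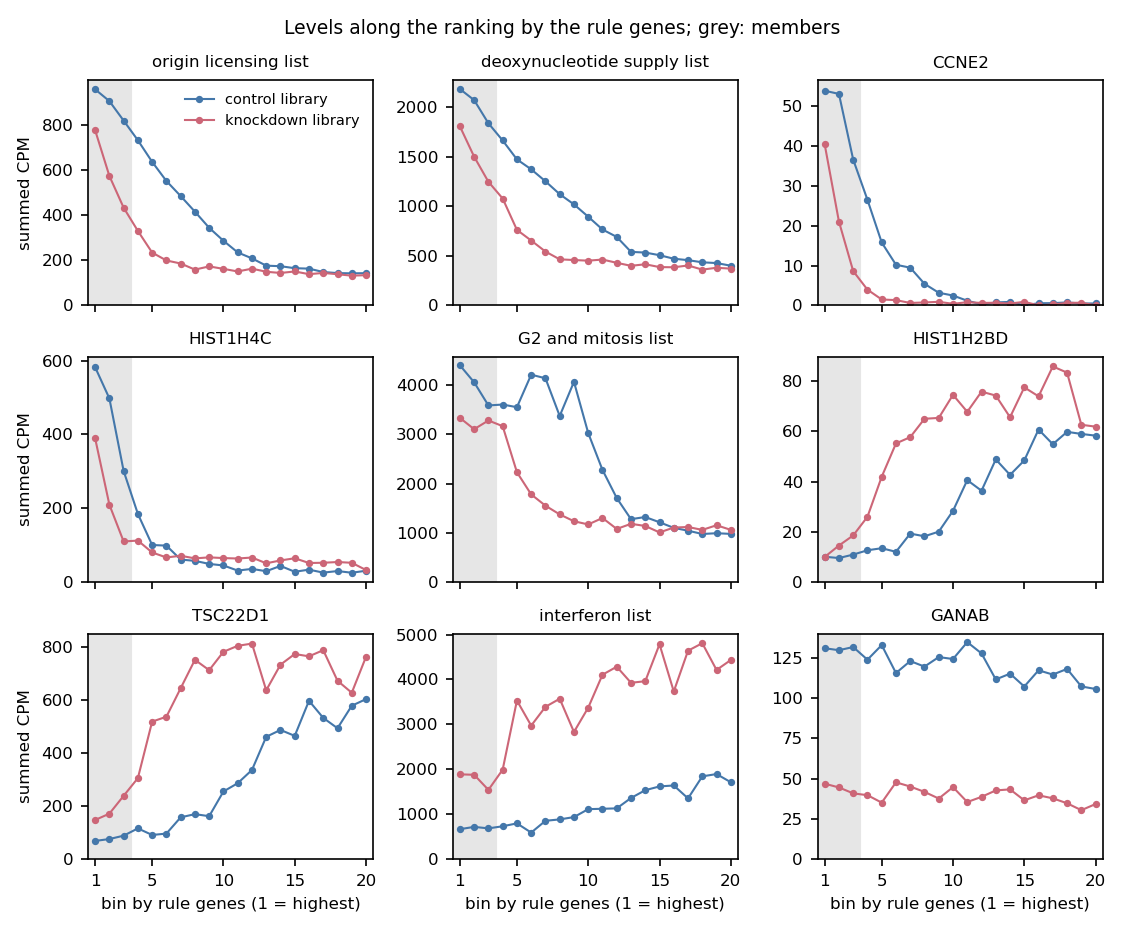
Summed CPM (vertical axis, from 0) of licensing genes, deoxynucleotide supply, CCNE2, HIST1H4C, the G2 and mitosis list, HIST1H2BD, TSC22D1, the interferon list and GANAB in 20 bins of 5% of ranked cells (1 = highest ranking), control in blue and knockdown in red. Shaded bins are members; licensing, deoxynucleotide supply and CCNE2 are higher in bin 1 than in bin 20, TSC22D1, HIST1H2BD and the interferon list are lower, and GANAB is lower in knockdown than in control cells in each of the 20 bins.

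At the same level limit, the genes lowest in members of both libraries by the larger of their ratios included TSC22D1, SOX4, HIST1H2BD, LPCAT2, KDM6B, LRP1, MMP2, KLHL24 and TNC. TSC22D1, a leucine zipper transcription regulator, stood at 77.6 and 315, and at 184 and 672, so that members of each library lay below other cells, by log2 ratios of -2.02 and -1.87. SOX4, a progenitor transcription factor, stood at 14.4 and 51.4, and at 69.7 and 306; the endocytic receptor LRP1 (5.92 and 20.8; 12.8 and 36.7) and the matrix gene TNC (10.2 and 30.9; 12.9 and 32.2) had the same order. Of G1 cyclins and cell cycle brakes 1 of 20 was higher and 7 were lower in both; CCND2 stood at 21.4 and 45.9, and at 45.4 and 135, while CCND1 was within 1.5-fold (776 and 768; 560 and 497).

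Interferon genes lay lower in members than in other cells, more so in the knockdown library, where more of them were measured. Of 34 listed, 11 were measured in control cells, with 4 lower and 1 higher (median -0.39), and 28 in knockdown cells, with 22 lower (median -1.14). ISG15, a ubiquitin-like antiviral protein, stood at 96 and 218, and at 387 and 906, and B2M, the light chain of class I molecules, at 778 and 1062, and at 1496 and 2984. MYC targets, mostly of ribosome making, had 17 of 20 higher in knockdown members (median 0.85) and 1 of 20 in control members (median 0.39); NPM1, a nucleolar chaperone, stood at 2829 and 2298, and at 3099 and 1898. Cholesterol synthesis had 5 of 21 higher in control and 11 of 18 in knockdown members, with FDPS, farnesyl diphosphate synthase, at 235 and 135, and at 99.6 and 48.5. The glucosidase and calnexin list had none past 1.5-fold in either library. Of p53 targets 0 and of hypoxia genes 0 were higher in both libraries, and 1 of 11 and 2 of 9 were lower.

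Members also carried RNA of later phases. Of the G2 and mitosis list 27 of 37 were higher in members than in other cells of both libraries. In this list 11 genes in control and 21 in knockdown cells reached 10 CPM in members only, so the filter fixed their direction. That members lay below the set-aside cells for 43 of 45 of these genes in control and 45 of 45 in knockdown cells follows from how those cells were chosen. CDK1, the mitotic kinase, had 105 CPM in control members, 15.9 in other and 204 in set-aside cells, and 42.2, 5 and 165 in the knockdown library. CCNB1, the mitotic cyclin, was lower in control members (34.1) than in other control cells (57.6) but higher in knockdown members (55.4) than in other knockdown cells (19.2). The 41 knockdown members above the control limit had 31 CPM and the 300 below it 58.3. The direction in control cells turned with the limit: the 1563 control cells above the knockdown limit had 75.3 CPM and lay above the remaining control cells by a log2 ratio of 1.33. With no cells set aside, knockdown members lay below other knockdown cells (-0.63).

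Against the cells set aside, 6 of 14 licensing genes were higher in control members (median 0.44) and 2 of 13 in knockdown members (median 0.09). Of all measured genes 1.55% and 1.07% were higher and 2.74% and 3.94% lower than in the set-aside cells, and both rankings bear on these counts. CCNE2 had 47.5 CPM in control members and 13.2 in set-aside control cells, and 23.7 and 19.1 in the knockdown library. UNG had 102 and 33.1, and 95.6 and 60.7. HIST1H4C differed little in control (455 and 445) and was lower in members of the knockdown library (239 and 592), where 17 of 23 measured replication-dependent histone genes were lower, against 0 of 24 in control.

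Between the libraries, 505 of 7772 genes measured in members (6.5%) were higher and 960 (12.4%) lower in knockdown than in control members, with a median log2 ratio of -0.11. In other cells 10.6% were higher and 15.3% lower. Genes that reached 10 CPM in members of only the control or only the knockdown library had their direction fixed by the filter. This holds for each list compared between the libraries below. Of the S phase lists 82 of 182 genes were lower in knockdown members and 2 higher, with a median of -0.54, beside -0.57 over the 137 measured in other cells. Gene by gene, over the 134 genes compared in both, the ratio in members minus that in other cells had a median of 0.20, with an interval above 0 in 73 and below 0 in 28. The matching shares over all measured genes were not taken, and these intervals cover counting error only. The lower S phase levels of knockdown members depended on where the ranking was cut. With both libraries cut at the control limit, which leaves the 41 knockdown cells, 21 of 183 were lower and 5 higher (median -0.13), against 9.24% lower and 9.99% higher among all measured genes. With both cut at the knockdown limit, an alternative chosen after the data were seen, 18 of 173 were lower and 2 higher (median -0.18), against 9.36% and 6.3%.

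Single genes show what the common limit does. CDC6 had 64.4 CPM in the 559 control members, 40.3 in all knockdown members and 76.3 in the 41 above the control limit. CCNE2 had 47.5, 23.7 and 45.7, MYBL2 72.1, 49.2 and 84.7, and MCM10 53, 36.4 and 69.2. The 41 cells lay above control members for CDC6, MYBL2 and MCM10 and slightly below for CCNE2. NASP, a chaperone of histones H3 and H4, kept its gap, with 387, 199 and 229, and with 338 in the 1563 control cells above the knockdown limit.

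Replication-dependent histones were lower in knockdown members in 17 of 22 measured (median -0.99), whereas in other cells 3 of 15 were higher and 2 lower (median 0.13). Histone genes that reached 10 CPM in control members only had their direction fixed by the filter. At a 50 CPM filter, where fewer genes were measured, 3 were lower. At the control limit 12 of 23 were lower (median -0.60) and at the knockdown limit 5 of 17 (median -0.43). HIST1H1D had 92.9 CPM in control members, 29.4 in knockdown members and 36.9 in the 41 highest. HIST1H4C had 455, 239 and 374, and 234 in control cells above the knockdown limit, which left no gap. With no cells set aside before ranking, 4 histone genes were lower and HIST1H4C had a log2 ratio of 0.10, so that its direction turned with the choice of cells.

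**Figure D4:**
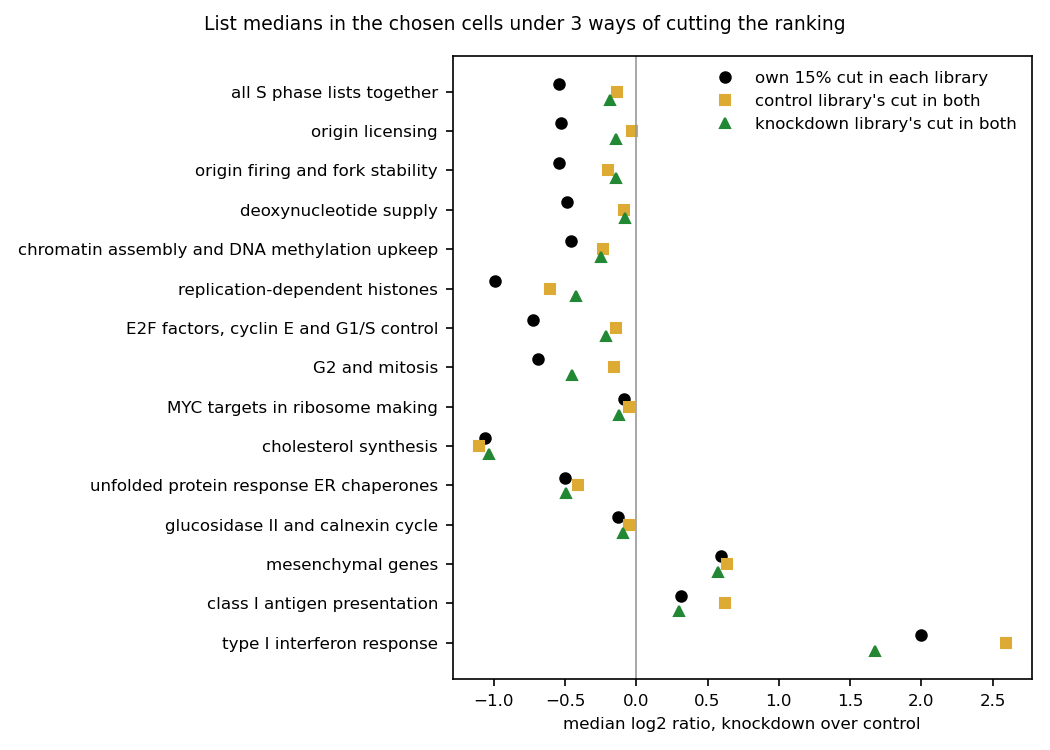
Median log2 ratio of knockdown over control (horizontal axis) for the measured genes of 15 lists (rows) in the cells chosen by each library's own 15% limit (black circles), by the control limit in both (yellow squares; 41 knockdown cells) and by the knockdown limit in both (green triangles; 1563 control cells). The S phase and the G2 and mitosis lists lie nearer 0 at a common limit, while cholesterol synthesis stays between -1.04 and -1.11 and interferon between 1.67 and 2.59.

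Cholesterol synthesis was lower in knockdown members at each limit, in 18 of 21 genes at the libraries' own limits (median -1.06), in 18 at the control limit and in 18 at the knockdown limit. HMGCS1, an early enzyme of the mevalonate pathway, had 367 CPM in control members against 128 in knockdown members, a log2 ratio of -1.51 (interval -1.57 to -1.46). FDPS had 235 and 99.6 and MVD 40.4 and 10.8, while PMVK had 60.5 and 61.8. The ratio of HMGCS1 was nearer 0 in members than in other cells (333 and 66.8) by 0.80 (0.73 to 0.88).

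Other ER genes were lower in part. Of the glucosidase and calnexin list 4 of 15 were lower in knockdown members (median -0.13), GANAB among them, with CALR, a lectin chaperone, at 552 and 335 CPM and LMAN1, a cargo receptor, at 155 and 89.7, while CANX had 374 and 347. Of ER chaperones of the unfolded protein response 6 of 16 were lower and 1 was higher (median -0.50): HSPA5, the main ER chaperone of the Hsp70 family, had 905 and 524, MANF 167 and 98.9, and the translocon subunit SEC61B, the higher one, 409 and 622. The ATF4 and CHOP list had 3 of 14 higher and 1 lower (median 0.23), with PHGDH, the first enzyme of serine synthesis, at 26.1 and 56.1. MYC targets had a median of -0.09 in members and -0.61 in other cells. In 19 of 20 of them the ratio was higher in members with an interval above 0, for example LDHA with 509 and 326 CPM in control and knockdown members and 414 and 159 in other cells. The share over all measured genes was not taken for this difference, so the count is a description only. Of p53 targets 2 of 13 were higher and 1 lower, of hypoxia genes 0 and 1 of 10, and of G1 cyclins and brakes 4 and 0 of 19.

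Interferon genes were higher in knockdown members in 17 of 23 measured (median 1.99). In control cells 11 of the 34 listed genes reached 10 CPM in members or other cells, beside 28 in knockdown cells. For genes that reached it in knockdown members only, the filter fixed the direction, which bears on the count and the median. At a 50 CPM filter, where fewer genes were measured, 4 were higher. IFIT2, an antiviral RNA-binding protein, had 1.21 CPM in control members, 35.8 in knockdown members and 79.2 in the 41 above the control limit. ISG15 had 96 and 387, IFI44 10.8 and 86.7 and IFITM3 340 and 650 in control and knockdown members. Of class I genes 4 of 14 were higher (median 0.31), with HLA-B at 210 and 425 and B2M at 778 and 1496. HLA and IFITM genes have close copies, between which reads can be split. In barcodes with at most 100 UMIs ISG15 had 176 and 759 and B2M 1087 and 2218, so free RNA differed in the same direction, and its part in the members' values was not tested.

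Among genes at 50 CPM or more in either library's members, the highest ratios of knockdown over control belonged to CCL5 (1.76 and 79.6 CPM), SPANXB1 (15.4 and 371), TMEM132D-AS1 (10.1 and 117), IFI44, NR4A1 (27.6 and 154), FAM133A (23.3 and 122), CXCL2 (33.5 and 170), SOX4 (14.4 and 69.7), IGFBP4 (18.2 and 83.5), CXCL1 (33.3 and 143), GNG11 (20.3 and 83.7) and ISG15. CCL5, CXCL1 and CXCL2 are chemokines, and NR4A1 is an immediate early nuclear receptor. Among the lowest were MAN1A1 (80 and 1.3), MME (185 and 14.5), DOCK4 (60.3 and 7.41), VGF (263 and 42.9), C15orf48 (78.9 and 13.8), HAPLN1 (68.1 and 13.7), DSE (63.4 and 13.3), CD82 (102 and 23.1), EGR1 (153 and 34.9), MMP14 (69 and 17.3) and EDIL3 (78.8 and 20.7). MAN1A1 is a Golgi mannosidase, and MME and MMP14 are cell surface proteases. Mesenchymal genes had 7 of 13 higher and 2 lower (median 0.59), with VIM at 3354 and 5641 and with CDH2 (38.5 and 1.35) and CALD1 (378 and 126) as the lower ones. TMEM132D-AS1 is an antisense gene, and how strand was counted is not known here.

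SPANXB1, FAM133A, TMEM132D-AS1 and MAN1A1 also separated cells within the control library. Cells with at least 100 CPM summed over the first 3 genes and at most 20 of MAN1A1 made up 44 of 559 control members (7.87%, Clopper-Pearson 5.78 to 10.4) and 307 of 341 knockdown members (90%, 86.3 to 93), beside 7.61% and 89.6% of other cells. In these 44 and 307 cells alone, the S phase median was -0.59, the cholesterol median -1.02 with 16 genes lower, the interferon median 1.00 with 16 genes higher, the number of lower unfolded protein response genes 1 and the GANAB log2 ratio -1.74. Of 113 named genes past 1.5-fold in members, 90 were past it in the same direction there. This count is no independent support, as the 307 cells are part of the 341 knockdown members. Many named genes were also picked as extremes of this contrast, and some of them define these cells. The log2 ratios of VGF (-2.61 to -0.52), C15orf48 (-2.52 to -0.66), EDIL3 (-1.92 to -0.24), GNG11 (2.04 to 0.52), IGFBP4 (2.19 to 0.65) and SOX4 (2.27 to 0.71) were much nearer 0 there. Those of CCL2 (-0.14 to 3.42) and CCL5 (5.49 to 8.58) were further from it. Of mesenchymal genes 3 were higher and 2 lower there (median 0.44), beside 7 and 2 in all members. The part of this difference in cell make-up in the contrast between the libraries was not tested.

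For some genes the libraries compared differently in members and in other cells. EGR1, an immediate early gene, had 153 and 34.9 CPM in control and knockdown members but 161 and 129 in other cells, a difference of -1.81 in log2 ratio. CCL5 had 1.76 and 79.6 in members and 2.55 and 386 in other cells (difference -1.75). G0S2, an inhibitor of lipolysis, had 187 and 104 in members and 104 and 13.5 in other cells (difference 2.11), with 7.97 in the 41 knockdown members above the control limit and 115 in the 300 below it. CCL2, a monocyte chemokine, had 121 and 110 in members and 130 and 30.6 in other cells (difference 1.95), with 41.5 in the upper and 118 in the lower knockdown members. The high G0S2 and CCL2 of knockdown members thus lay in cells below the control limit.

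Most markers of other cell types were at or near 0 in members. The T and NK cell list summed to 0 CPM in control and 0.0449 in knockdown members, with CD3D, CD3E and NKG7 at 0 in both. The endothelial list summed to 0.0911 and 0.359, the neutrophil list to 0.121 and 0.0449, the red cell list to 1.46 and 0.628, and the urothelial list, which holds uroplakins, to 0.941 and 1.44. The fibroblast list summed to 17.1 and 11.8 with DCN and LUM at 0, beside 17.8 and 11.6 in other cells. The macrophage list summed to 29.8 and 30.3, of which CD68, a lysosomal protein, made up 29.6 and 30.1, with C1QA and C1QB at 0.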

How the data were processed

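Droplet 3' single-cell RNA was counted in 2 libraries, 1 per group. The authors deposited raw UMI counts for 33538 genes and 6794880 barcodes per library, made with Cell Ranger 3.1.0 on GRCh38 per the submitters' processing notes; whether the mouse genome was included was not stated. The libraries held 239857346 control and 155064055 knockdown UMIs. Counts were summed per group and divided by the group's total (CPM), and log2 ratios had 0.5 added to each sum. Ratios carry exact conditional binomial intervals and shares Clopper-Pearson intervals, all at 95%. The members, 33 gene lists and rules were chosen with earlier results of these data known. Named genes were the ranking and set-aside genes, GANAB, PRKCSH, SPANXB1, FAM133A, MAN1A1, up to 6 per list by level and ratio, and the extremes of each contrast: 15 highest and 10 lowest over other cells (20 CPM or more), and 12 each way between libraries and 6 each way for the difference (50 CPM or more). Some genes that this rule names are not reported here. MCM6, POLA1 and HELLS were named for their promoters, and VIM, KRT7, KRT8, KRT18 and CD44 as markers of the line. Counts were simulated for knockdown over control in members, for 5275 genes at 20 CPM or more in control members. Planted changes were 2-fold or more, and counting error was the only noise. There 200 of 200 changed genes were called in the right direction and 0 unchanged genes. The simulation does not bear on smaller changes, on lower levels or on differences between cells and libraries. RefSeq promoters were matched by symbol; gene positions were from GENCODE release 29. Python 3.11.15, numpy 2.4.6, scipy 1.17.1, pandas 2.3.3 and matplotlib 3.10.9 were used. Alternatives varied the share, set-aside step, UMI and mitochondrial limits, thinning, ranking genes, limit, weighting, level filter, scaling and cell make-up.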

Additional observations from a re-analysis of the deposited data

Results flagged for a closer look

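In 3 genes named for their difference between members and other cells, members lay at least 1.5-fold above other cells in one library and at least 1.5-fold below them in the other. With 1 library per group this difference was not tested. For CCNB1 the log2 ratio of members over other cells was -0.76 in control and 1.53 in knockdown cells, a difference of 2.29. The opposite direction was lost at the knockdown limit in both libraries, an alternative chosen after the data were seen, where the control ratio was 1.33, and with no cells set aside, where the knockdown ratio was -0.63. For BDKRB1, a bradykinin receptor, it was -1.38 (25.1 and 65.5 CPM) and 0.59 (11 and 7.28), a difference of 1.97. For HAPLN1, a hyaluronan link protein, it was 0.72 (68.1 and 41.3) and -0.68 (13.7 and 22), a difference of -1.40. In the 41 knockdown members above the control limit CCNB1 had 31, BDKRB1 2.1 and HAPLN1 11.3 CPM.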

How the results depend on the processing

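The GANAB ratio and the S phase, G2 and mitosis, histone, cholesterol and interferon medians between the libraries kept their sign under the alternatives run. Some smaller medians did not: the ATF4 and CHOP list ranged from -0.11 to 0.36, p53 targets from -0.03 to 0.58 and hypoxia genes from -0.24 to 0.37. MYC targets ranged from -0.17 to 0.02 and G1 cyclins and brakes from -0.01 to 0.14. Counts and shares have no sign that could reverse. The balance of genes higher and lower in knockdown members (505 and 960) did change. It was 791 and 732 at the control limit, and 686 and 676 centred on the median gene. In 34 recomputed values a count moved by over 1.5 times, a median by over 0.1, or the share or the GANAB ratio out of its counting interval, and 143 stayed within these bounds. The share of knockdown cells above the control limit (1.81%) was 0.572% with the top 10% taken, 4.18% with the top 20%, 3.44% with no cells set aside, 2.47% thinned and 3.70% when ranked by 7 other genes. The S phase median between the libraries (-0.54) was -0.30 with no cells set aside, -0.66 without the top 5% by UMIs, -0.13 at the control limit, -0.18 at the knockdown limit and -0.43 centred on the median gene. The median over genes of the ratio in members minus that in other cells (0.20) was 0.30 at 25000 UMIs or more, 0.063 at a 50 CPM filter and 0.0074 at the knockdown limit. Lower G2 and mitosis genes (24) numbered 1 with no cells set aside, 6 at the control limit, 8 at 50 CPM and 13 at the knockdown limit, and lower histones (17) numbered 4 with no cells set aside, 3 at 50 CPM, 36 at 1 CPM and 5 at the knockdown limit. Genes higher in knockdown members (505) numbered 791 at the control limit, 178 at 50 CPM, 1421 at 1 CPM and 311 in cells low in MAN1A1 and high in SPANXB1, FAM133A and TMEM132D-AS1; those lower (960) numbered 307 at 50 CPM and 1715 at 1 CPM. At 50 CPM, fewer genes being tested, S phase genes higher in members numbered 65 in control and 44 in knockdown cells, lower cholesterol genes 10 and higher interferon genes 4. GANAB was at -1.29 at the control limit, -1.46 centred and -1.74 in cells low in MAN1A1.

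Among values past 1.5-fold, reversals came in 21 values of named genes, and the cause was not tested. Between libraries, with no cells set aside, TOP2A was at 0.37, MKI67 at 0.039 and HIST1H4C at 0.10, and CCNB1 of members over other knockdown cells at -0.63. At the control limit, with 41 knockdown cells, RRM2 was at 0.13, TOP2A at 0.12, FAM111B at 0.082, CDC6 at 0.25, TCF19 at 0.090, FEN1 at 0.0063, ESCO2 at 0.077 and CCNB1 at -0.13. There, members over other knockdown cells were at -0.20 for CCL2, -2.04 for G0S2 and -0.57 for ADM. In cells low in MAN1A1 and high in the sum of SPANXB1, FAM133A and TMEM132D-AS1, FAM133A was at -0.11, BDKRB1 at 0.10 and PHGDH at -0.17. FAM133A was itself used to choose these cells in both libraries, so its value there describes the choice. At the knockdown limit, chosen after the data were seen, CCNB1 was at -0.44 between libraries and 1.33 over other control cells, and HIST1H4C at 0.034. No paired analysis was possible because each group was 1 library. Comparisons at the control limit rest on 41 knockdown cells.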
